A study of Mus musculus with 26 samples.

Results

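The cytosolic ribosomal protein genes were taken as all protein-coding genes of the GENCODE M21 annotation whose symbol is Rpl or Rps plus a number, together with Rplp0, Rplp1, Rplp2 and Rpsa. Symbols of pseudogenes, of the Rps6k kinases and of the binding protein Rps19bp1 were left out. The rule found 85 of 21951 protein-coding genes, of which 52 encode proteins of the large subunit and 33 proteins of the small subunit. Among them, 77 encode the standard ribosomal proteins and 8 are paralogs or retrogenes (Rpl3l, Rpl7l1, Rpl10l, Rpl22l1, Rpl36al, Rpl39l, Rps27l and Rps27rt). No measured value entered this rule, but the genes and lists were chosen with earlier results of these data known.

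The cells were mouse embryonic fibroblasts (MEFs) of a female line, grown in serum. Of the 3 genotypes, WT cells carried unmodified ATRX. ATRXΔRBR cells were a CRISPR/Cas9 clone, selected with puromycin, in which the endogenous ATRX gene lacks its RNA binding region (RBR), so that the genotype and the clone cannot be told apart. ATRX KD cells carried an shRNA against ATRX and were also selected with puromycin. ATRX is a chromatin remodeler that binds RNA, and EZH2 is the enzyme of Polycomb repressive complex 2 (PRC2), which places H3K27me3 on repressed genes. Poly(A)-enriched RNA was sequenced in 2 libraries per genotype. CUT&RUN, in which a nuclease tethered to an antibody releases the chromatin it binds, gave peak lists of ATRX in WT and ATRXΔRBR cells, and of EZH2 and H3K27me3 in all 3 genotypes, again with 2 lists each. The study describes the libraries of a genotype as biological replicates. The sources used here do not say which step was repeated, and p-values measure the spread between these libraries.

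Ribosomal proteins assemble with ribosomal RNA in the nucleolus into the small subunit, which reads the mRNA, and the large subunit, which joins amino acids. Their mRNAs usually begin with a C and a run of pyrimidines, the 5′ terminal oligopyrimidine (TOP) motif, through which growth signals set their translation together. Many have left processed pseudogenes, copies of the spliced mRNA that were inserted elsewhere in the genome. A short read from such an mRNA can then fit several places.

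The RNA-Seq libraries held between 9051693 and 21723647 estimated counts. The difference between gene length and effective length in the files corresponds to reads of 38 bases in WT and ATRXΔRBR libraries and of 37.55 bases on average in ATRX KD libraries. How reads were handled and the ATRX KD genotype cannot be told apart. Summed over 12 fibroblast markers, the level in TPM (transcript abundance scaled for gene length and library size) was 13684 and 11365 in WT, lower than the 21232 and 23303 of ATRXΔRBR and the 18610 and 18853 of ATRX KD. Thy1 and Fap were at 0 in all 6 libraries, and Col3a1 stood at 28.1 and 32.2 TPM in WT but at 0.36 and 0.75 in ATRX KD. The part of these differences in the results was not tested. Summed levels were between 0.08 and 0.91 TPM for 4 epithelial, 0.05 and 5.22 for 3 endothelial, 0.21 and 2.23 for 3 myogenic, 4.55 and 12.1 for 3 haematopoietic, and 39.6 and 91.9 for 3 neural markers. Krt18, Adgre1, Cdh5, Myod1 and Myf5 were at 0 in every library. The neural sum was lower in ATRX KD (39.6 and 42.8 TPM) than in WT (91.9 and 77.7 TPM), chiefly through Sox2, and its part was not tested either. Estimated counts on Atrx itself were 8278 and 5195 for WT, 3531 and 4291 in ATRXΔRBR, 3768 and 11891 in ATRX KD. On the TPM scale Atrx stood at 233 and 141 for WT, 175 and 124 for ATRXΔRBR, and 331 and 512 for ATRX KD, so that both ATRX KD libraries lay above WT on that scale. Neither edgeR's quasi-likelihood test of ATRX KD against WT (log2 fold change −0.16, SE 0.208, adjusted p = 0.604, Benjamini-Hochberg) nor that of ATRXΔRBR (−0.64, SE 0.216, adjusted p = 0.140) called it, so that the RNA does not check the knockdown label. At the protein level, the paper describes ATRX as acutely depleted in its knockdown lines and shows a western blot of nuclear extract.

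To show why reads of some ribosomal protein mRNAs have several possible places, the first 38 bases of 5 spliced coding sequences are given 5′ to 3′, with the start codon in capitals.
Rpl8: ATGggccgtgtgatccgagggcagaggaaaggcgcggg
Rplp1: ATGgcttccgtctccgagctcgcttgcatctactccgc
Rps6: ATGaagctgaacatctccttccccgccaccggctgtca
Rpl21: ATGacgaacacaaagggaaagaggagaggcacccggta
Rpl29: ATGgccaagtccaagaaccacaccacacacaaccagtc
The stretches of Rpl8 (chr15:76904078-76906314, GRCm38, plus strand) and Rplp1 (chr9:61913284-61914542, minus strand) occurred at 0 other places in the genome. That of Rps6 (chr4:86854660-86857412, minus strand) occurred letter for letter at 7 other places, that of Rpl21 (chr5:146832890-146837032, plus strand) at 23 and that of Rpl29 (chr9:106429454-106431568, plus strand) at 27.

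Start sites are shown next, for the genes that the comparisons below turn on. Each stretch runs from 50 bases before the RefSeq start site (GRCm38.p6) to 20 bases from it on, so that base 51 of 70 is the annotated start. Capitals mark runs of 6 or more C or T on the coding strand that reach within 15 bases of the start. Such a run can lie partly farther away, and before or after the start, and the same rule gave the shares below.
Rpl5: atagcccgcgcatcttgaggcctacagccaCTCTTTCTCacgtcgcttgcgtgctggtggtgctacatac
Rpl9: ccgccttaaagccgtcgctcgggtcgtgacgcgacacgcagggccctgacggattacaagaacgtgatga
Rps19: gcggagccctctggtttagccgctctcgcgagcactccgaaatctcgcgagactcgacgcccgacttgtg
Rpl39: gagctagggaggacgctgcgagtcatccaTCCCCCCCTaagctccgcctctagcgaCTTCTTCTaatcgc
Rpl13: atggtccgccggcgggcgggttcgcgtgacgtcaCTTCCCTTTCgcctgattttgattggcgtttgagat
Rpl23: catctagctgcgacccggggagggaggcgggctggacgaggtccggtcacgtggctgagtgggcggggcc
Rps27l: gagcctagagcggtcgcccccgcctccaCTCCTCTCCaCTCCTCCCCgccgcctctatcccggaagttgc
They lie at chr5:107900478-107900547 (Rpl5, plus strand), chr5:65391412-65391481 (Rpl9, minus), chr7:24884542-24884611 (Rps19, plus), chrX:37085203-37085272 (Rpl39, minus), chr8:123102300-123102369 (Rpl13, plus), chr11:97782420-97782489 (Rpl23, minus) and chr9:66946036-66946105 (Rps27l, plus). RefSeq promoters of 300 bases, 250 before the start and 50 from it on, were at hand for 65 of the 85 genes and for 27025 genes in all. A run of 6 or more C or T near the start was present in 41 of the 65 (63.1%), against 37.4% of all promoters and 34.3% of the 7696 promoters of protein-coding genes with at least 5 TPM in both WT libraries. A C at the start followed by 4 pyrimidines was found in 13 of the 65 (20%), against 2.47% of all and 2.42% of the expressed. These shares depend on the annotated start. RefSeq and outermost GENCODE starts were the same in Rpl13, but 180 bases apart in Rpl39, 221 in Rps19 and 3553 in Rps24. The part of such differences in the shares was not tested. In the 300 bases and on both strands, CCGGAAG, the core bound by ETS factors, was present in 38.5% of the 65, 9.16% of all and 21.2% of the expressed promoters. TGACGTCA, the full cAMP response element, was present in 7.69%, 1.86% and 3.55%. The TATA box letters TATAAA stood in 9.23%, 14.2% and 6.15%, GGGCGG in 60%, 36.0% and 69.8%, CCAAT in 30.8%, 37.9% and 39.6%, and CACGTG in 7.69%, 7.2% and 11.1%. These are matches of letters, not sites shown to be bound.

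The levels of the ribosomal protein genes in WT cells spanned from above 4000 TPM to 0, although a ribosome holds most of their products in equal number. Rpl8, which lines the peptidyl transferase centre, was the highest, with 5188 and 3619 TPM in the WT libraries, 3778 and 5123 in ATRXΔRBR, 2030 and 2200 in ATRX KD. Both ATRX KD libraries lay below the other 4, and those of WT and ATRXΔRBR overlapped. Rplp1, an acidic protein of the stalk that calls elongation factors to the ribosome, had 3393 and 2813 TPM in WT, 1911 and 2606 in ATRXΔRBR, 916 and 1065 in ATRX KD. Rpl4, a protein of the exit tunnel, had 2196 and 2286 TPM in WT, 1911 and 1947 in ATRXΔRBR, 1480 and 1523 in ATRX KD. For Rplp1 and Rpl4 the 3 genotypes did not overlap, with WT highest and ATRX KD lowest. In all, 12 genes had a mean of 1000 TPM or more in WT. In WT the libraries of Rpl8, Rplp1 and Rpl4 each lay above both of the next gene in this order, whereas the ranges of Rps15 (2052 and 1609 TPM) and Rps26 (1676 and 1180) overlapped.

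At the other end, 7 of the 85 genes had a mean under 1 TPM in WT. These were the standard genes Rpl36 and Rpl38, Rps3a1, and the paralogs Rpl3l, Rpl10l, Rpl39l and Rps27rt. Rps3a1, which encodes a core protein of the small subunit, had 0.59 and 0 TPM in WT and at most 0.95 TPM in any library. Rpl36, of the large subunit, was listed at 0 in 4 libraries, with 0.46 TPM in WT replicate 2 and 0.76 in ATRXΔRBR replicate 2. Rps6, the small-subunit protein that S6 kinases phosphorylate, had 12.1 and 10.7 TPM in WT, 8.38 and 6.57 in ATRXΔRBR, 4.85 and 7.71 in ATRX KD. Of the 77 standard genes, 10 were under 10 TPM and their median was 175 TPM. The 5 genes with the most counts in a library held between 42.4% and 45.9% of the counts on all 85.

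**Figure D1:**
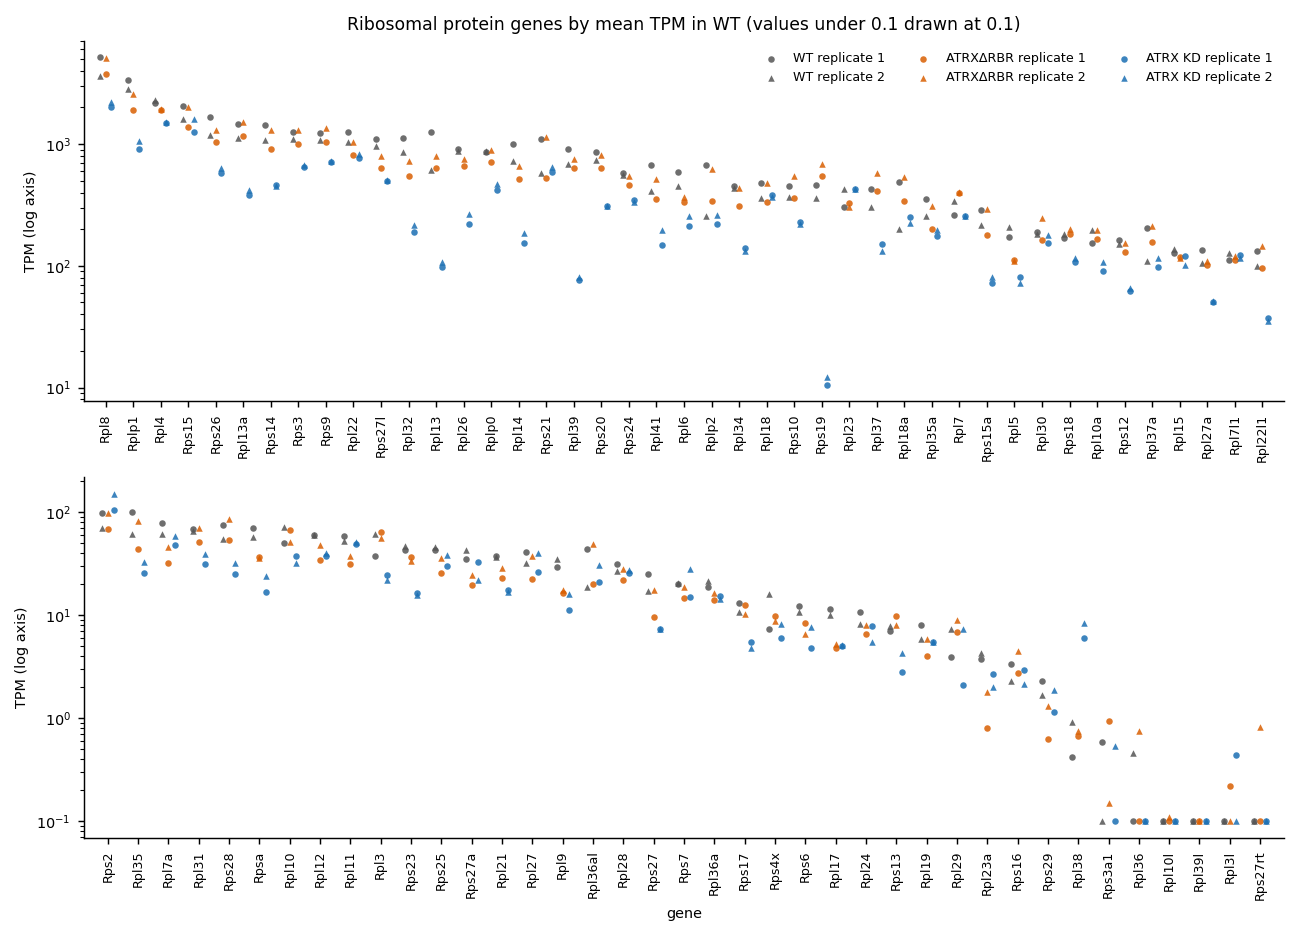
TPM of 82 of the 85 genes on a log axis, in the order of their mean in WT, with a point for each of the 6 libraries (circles replicate 1, triangles replicate 2). Rpl8 stands at the left with up to 5188 TPM, and values under 0.1 TPM are drawn at 0.1.

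These levels moved with the number of places that a read of the gene could come from. The coding sequence of each gene was cut into all windows of 38 bases, and each window was looked up in GRCm38 on both strands. In 52 of the 85 genes, more than 90% of the windows were also found elsewhere, and in 3 genes fewer than 10%. The windows lay at 830 other places that hold 50 or more of them, over which 785 annotated pseudogenes lie. Among the standard genes, the 6 with under 50% of windows elsewhere had a median of 1438 TPM in WT, and the lowest of them 1149 TPM. The 38 genes with 50 to 99% elsewhere had a median of 411 TPM, and the 33 genes with 99% or more elsewhere a median of 36.9 TPM. Spearman's rho between the share of windows elsewhere and the mean TPM in WT was −0.77 over the 77 genes, which share libraries and are not independent replicates. Rpl8 had 10.4% of its windows elsewhere, whereas Rps6, Rpl21, Rpl38 and Rpl36 had all 100% and Rps3a1 93.1%. There were exceptions: Rpl13 and Rpl39 had all windows elsewhere and levels of 1270 and 618 TPM, and of 917 and 693 TPM, in the WT libraries. The 785 pseudogenes held 0.111% and 0.0866% of all counts in WT, 0.0719% and 0.0969% in ATRXΔRBR, 0.0648% and 0.0658% in ATRX KD. How the aligner treated reads with several places is not given in the sources used here, and its part in the low levels was not tested. A low value of these genes is therefore an uncertain level of the gene's mRNA, and comparisons below are between genotypes for the same gene.

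**Figure D2:**
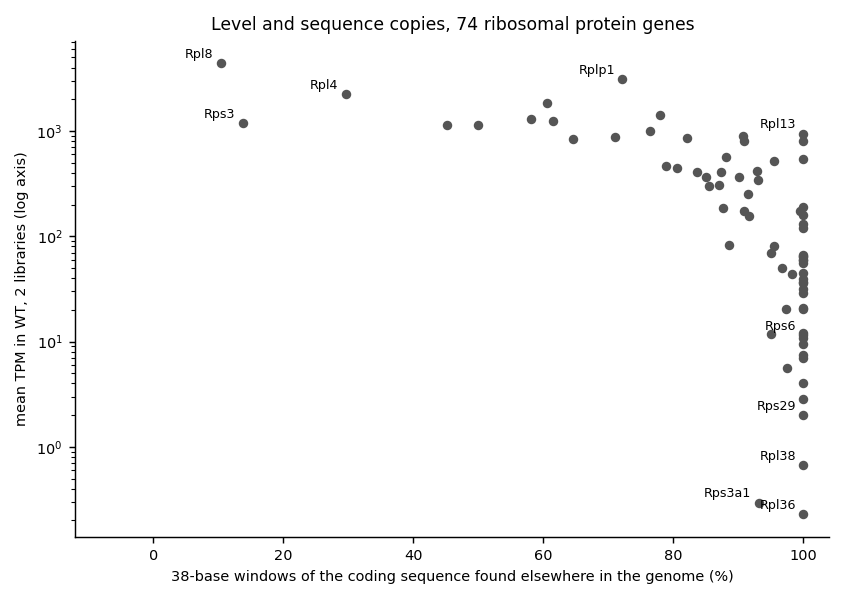
Mean TPM in WT (log axis) of 74 of the 77 standard ribosomal protein genes against the percent of 38-base windows of their coding sequence that occur elsewhere in the genome. The genes drawn under 50% all lie at 1149 TPM or more, and genes under 10 TPM all lie at 93.1% or more.

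Several paralogs were expressed beside their parent genes. Rps27l, a target of p53, had 1102 and 969 TPM in WT, 634 and 796 in ATRXΔRBR, 501 and 510 in ATRX KD. Its parent Rps27 was listed at 25.1 and 17.0 TPM in WT, with all of its windows elsewhere against 56.7% for Rps27l, so that the order of the pair is uncertain. Rpl22 had 1256 and 1042 TPM in WT, and Rpl22l1, whose mRNA the Rpl22 protein is known to bind, had 133 and 98.8 TPM. Rpl36a had 18.8 and 21.6 TPM and its retrogene Rpl36al 43.2 and 18.9 TPM, ranges that overlapped. Rpl7 had 261 and 343 TPM and Rpl7l1 112 and 127 TPM. Rpl3 had 37.4 and 61.6 TPM, whereas the muscle paralog Rpl3l was at 0 in both WT libraries. The testis paralogs Rpl10l and Rpl39l and the retrogene Rps27rt were at 0 in WT, beside Rpl10 with 49.5 and 70.9 TPM and Rpl39 as above. Rps4x, the X-linked small-subunit gene, had 7.34 and 16.1 TPM.

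The first comparison asks how much of the RNA pool the ribosomal protein genes took in each genotype. They held 1.5002% and 1.15% of the estimated counts in WT, 0.9501% and 1.34% in ATRXΔRBR, 0.555% and 0.595% in ATRX KD. The means were 1.32% ± 0.250 (SD, n = 2), 1.14% ± 0.272 (SD, n = 2) and 0.575% ± 0.0285 (SD, n = 2). In TPM the shares were 4.22% and 3.38%, 2.98% and 3.91%, and 1.77% and 1.91%. Both ATRX KD libraries lay below both WT libraries on each scale, and the ATRXΔRBR libraries overlapped with WT. With 2 libraries against 2, a two-sided exact permutation test cannot go below p = 0.333. In bulk RNA, fewer cells with these mRNAs and less mRNA per cell cannot be told apart. Large-subunit genes made up 62.1% and 61.6% of the summed TPM in WT, 60.8% and 59.5% in ATRXΔRBR, 58.1% and 57.8% in ATRX KD. The libraries of a genotype differed as a block too: the median log2 ratio of replicate 2 over replicate 1 was −0.25 in WT, 0.36 in ATRXΔRBR and 0.11 in ATRX KD, over genes with at least 10 TPM in both.

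In ATRX KD cells, most ribosomal protein mRNAs fell against WT. Of the 79 genes tested, 55 were called by edgeR's quasi-likelihood test at a Benjamini-Hochberg adjusted p under 0.05 over all 16748 genes, 54 lower and 1 higher. Of all genes tested, 33.1% were called, 17.8% lower and 15.2% higher. The median log2 fold change of the 79 genes was −1.14, with quartiles of −1.54 and −0.68, against −0.02 over all genes. Both ATRX KD libraries lay under both WT libraries for 70 of the 79 genes, as they did for 36.0% of all genes. An unadjusted p under 0.05 was found for 63 of the 79 genes and for 44.6% of all. A fall to 0.5 of WT or less that passed the test was found for 43 of the 79 genes and for 8.79% of all genes. Rpl10l, Rpl36, Rpl39l, Rpl3l, Rps27rt and Rps3a1 had too few counts to be tested.

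Genes of both subunits fell. In the large subunit 31 of 48 tested genes fell and 1 rose (median −1.09), and in the small subunit 23 of 31 fell (median −1.25). By uniqueness, 6 of 7 genes with under 50% of windows elsewhere fell (median −0.99), 27 of 40 with 50 to 99% (median −1.19), and of 32 with 99% or more 21 fell and 1 rose (median −1.18). Among the 7, Rpl8 had 2326 and 1454 CPM (counts scaled by library size, with TMM) in WT and 733 and 811 in ATRX KD (−1.29, SE 0.212, adjusted p = 0.00461 by edgeR). Rpl4 fell less, from 1789 and 1654 to 962 and 1024 CPM (−0.79, SE 0.107, adjusted p = 0.00221 by edgeR).

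The sizes of the changes were far from uniform. Rps19, whose mutation causes Diamond-Blackfan anaemia in people, fell the most, from 94.97 and 68.5 CPM in WT to 5.02 and 5.35 in ATRX KD (log2 fold change −3.97, SE 0.212, adjusted p = 9.72e-05 by edgeR). In ATRXΔRBR it had 543 and 692 TPM, above both WT libraries (459 and 362). Rpl39, the smallest protein of the exit tunnel, went from 290 and 196 CPM to 19.5 and 20.8 (−3.59, SE 0.212, adjusted p = 0.000131 by edgeR). Rpl13, of the large subunit, had 529 and 235 CPM in WT, a wide spread, 31.1 and 35.3 in ATRX KD (−3.52, SE 0.368, adjusted p = 0.000862 by edgeR). In each of these genes the ATRX KD libraries were close together and far below WT. Rpl32 had 299 and 207 CPM in WT and 41.1 and 47.6 in ATRX KD, and Rpl14 had 299 and 194 against 38.9 and 47.7 (log2 fold changes −2.51 and −2.503). Rpsa, the small-subunit protein also known as the laminin receptor, went from 63.2 and 39.1 to 9.71 and 13.7 CPM (−2.10).

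Other genes with the lowest p-values fell, with log2 fold changes from −2.08 to −1.395. Rpl26, which lies by the exit tunnel, had 245 and 213 CPM in WT and 48.0 and 59.9 in ATRX KD. Rpl34 went from 121 and 102 to 31.1 and 31.5 CPM, and Rps12, of the small-subunit beak, from 86.5 and 76.5 to 25.3 and 26.5. Rps20 went from 246 and 197 to 82.1 and 86.4 CPM. Rps23, of the decoding centre, had 18.9 and 18.7 CPM in WT and 5.78 and 5.26 in ATRX KD. All of these pairs were apart by more than the difference between replicates, and each was called, with adjusted p between 0.000267 and 0.000780 in edgeR.

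The stalk proteins did not all pass the test. Rplp0, which anchors the stalk, fell from 612 and 480 CPM to 168 and 182 (log2 fold change −1.64, SE 0.147, adjusted p = 0.000527 by edgeR), and Rplp1 from 863 and 641 to 188 and 223 (−1.87, SE 0.172, adjusted p = 0.000562). Rplp2 had 147 and 52.0 CPM in WT and 41.0 and 49.4 in ATRX KD (−1.14, SE 0.420, adjusted p = 0.0773), and WT replicate 2 lay close to ATRX KD. Rpl5 and Rpl11, which with 5S rRNA form a particle that binds Mdm2, differed: Rpl5 fell from 168 and 174 to 60.02 and 53.2 CPM (−1.60, SE 0.125, adjusted p = 0.000319), and Rpl11 had 24.8 and 20.2 CPM in WT and 14.6 and 17.6 in ATRX KD (−0.47, SE 0.182, adjusted p = 0.0890). Rpl10, which joins the large subunit last, fell from 20.5 and 26.2 to 12.1 and 10.2 CPM (−1.07, SE 0.194, adjusted p = 0.00665). Rps6 had 6.67 and 5.02 CPM in WT and 1.64 and 3.14 in ATRX KD (−1.22, SE 0.358, adjusted p = 0.0377). Of the paralogs, Rps27l (−1.35, adjusted p = 0.000602) and Rpl22l1 (−1.82, adjusted p = 0.000640) fell in the edgeR test, and Rpl36al and Rpl7l1 did not pass it.

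At the upper end of the genes that held 100 counts or more per library stood Rps2, Rpl23 and Rpl7l1. Rps2, of the mRNA entry channel, had 42.9 and 27.3 CPM in WT and 39.1 and 56.7 in ATRX KD (log2 fold change 0.46, SE 0.255, adjusted p = 0.210 by edgeR), and the groups overlapped. Its value depended on its copies: 67 other places hold 50 or more of its windows, and with the counts of its named pseudogenes added the log2 fold change was −0.044. Without WT replicate 1 it was 0.84 and passed the test, as it also did at 0.44 with no filter on low counts. Rpl23, another partner of Mdm2, had 111 and 124 CPM in WT and 110 in both ATRX KD libraries (−0.10, SE 0.119, adjusted p = 0.568). Rpl7l1 had 159 and 161 CPM in WT and 140 and 136 in ATRX KD (−0.21, SE 0.110, adjusted p = 0.180). Both passed the test as lower without WT replicate 1 (−0.19 and −0.24), and Rpl7l1 also without WT replicate 2 (−0.20). The gene called higher was Rpl38, known from mice for a part in Hox mRNA translation, and it rests on few reads. It had 1 and 2 estimated counts in WT and 8 and 27 in ATRX KD. Per total count this is a ratio of 9.54, with an exact 95% interval of 3.01 to 48.5 that covers counting error only.

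**Figure D3:**
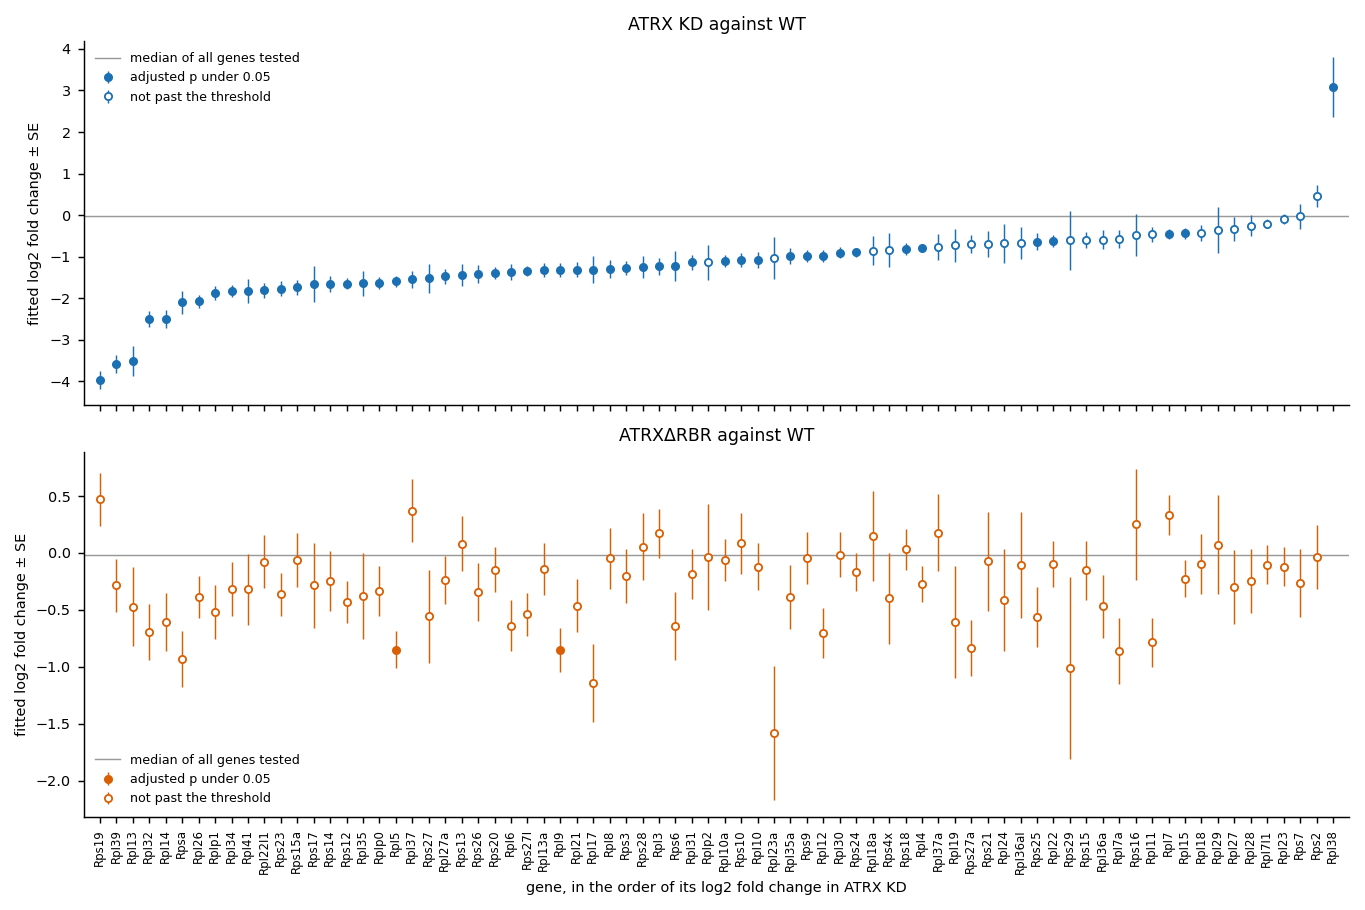
Fitted log2 fold change with its standard error for 76 of the 79 genes tested in ATRX KD against WT (upper panel) and 75 of the 78 tested in ATRXΔRBR against WT (lower panel, its own scale), with genes in the same order. Filled points passed an adjusted p of 0.05; ATRX KD runs from −3.97 at Rps19 to 3.09 at Rpl38, and in ATRXΔRBR only Rpl5 and Rpl9 are filled.

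The lower level in ATRX KD stood beside a trend with gene length that ran through the other genes. Among genes that are no ribosomal protein genes and had at least 100 counts in each library, the median log2 fold change was −0.63 for 130 genes with an RNA length of up to 600 bases, −0.50 for 530 genes of 600 to 1000, −0.24 for 2254 genes of 1000 to 2000, 0.05 for 3670 genes of 2000 to 4000, and 0.41 for 2216 longer genes. Ribosomal protein mRNAs are short. In the same classes their medians were −1.33 (25 genes), −1.09 (16 genes) and −1.25 (8 genes), lower than those of the other genes in each of the 3 classes. In ATRXΔRBR the corresponding medians of other genes ran from −0.15 in the shortest to 0.12 in the longest class, and those of ribosomal protein genes were −0.12 (28 genes), −0.17 (17 genes) and −0.33 (11 genes). The part of the length trend in the change was not tested. In Rps19, the mean RNA length of the gene as estimated by RSEM, which weights its transcripts by abundance, was also far from that of WT in ATRX KD, with 1113 and 1007 bases against 413 and 421.

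**Figure D4:**
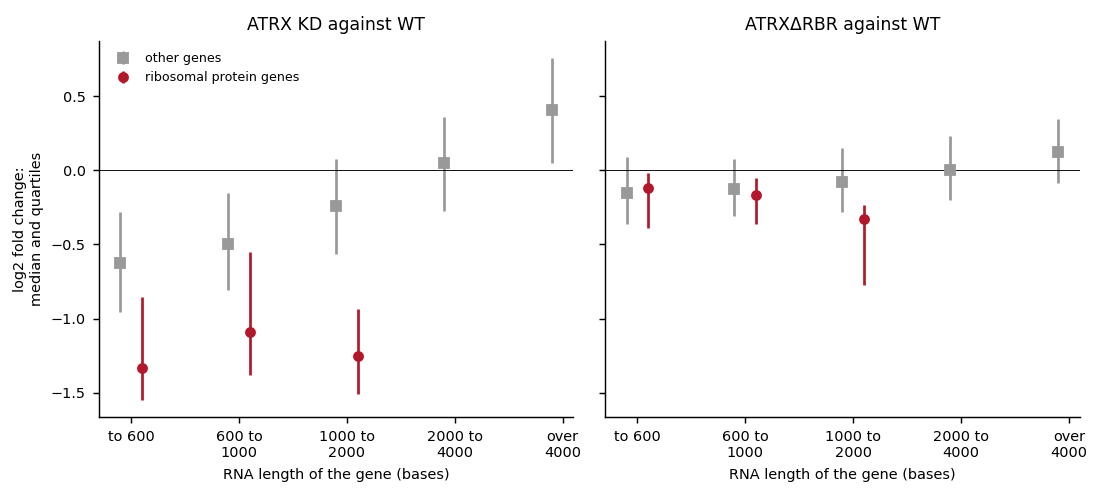
Median and quartiles of the log2 fold change in classes of RNA length, for ribosomal protein genes (circles) and all other genes (squares) with at least 100 counts in each library, in ATRX KD (left) and ATRXΔRBR (right) against WT; classes with fewer than 5 genes are not drawn. Other genes rise from −0.63 to 0.41 with length in ATRX KD, and ribosomal protein genes lie near −1.1 to −1.3.

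Genes outside the symbol rule that belong to the same machinery were set beside these. Of 3 ribosomal protein genes that the symbol rule misses, among them Rack1, the scaffold on the small-subunit head, only Rack1 passed the test in ATRX KD, falling from 1373 and 1186 CPM to 772 and 793 (log2 fold change −0.71, SE 0.116, adjusted p = 0.00454 by edgeR). Of 16 translation factors and other proteins with TOP mRNAs, 13 fell and none rose (median −0.92). Eef1b2, an exchange factor of elongation factor 1, went from 691 and 518 to 263 and 278 CPM, and Pabpc1, the poly(A) binding protein, from 1661 and 910 to 522 and 543. Eef2, the translocase, had 3447 and 3228 CPM in WT and 2839 and 2998 in ATRX KD and did not pass the test (−0.19, adjusted p = 0.184). Of 36 ribosome biogenesis genes 15 fell and 1 rose (median −0.34), so that 44.4% were called, against 33.1% of all genes. Nop10 of the pseudouridylation complex fell from 61.9 and 59.6 to 29.5 and 30.2 CPM, and Polr1a, the largest subunit of RNA polymerase I, rose from 100 and 123 to 195 and 208. Of 78 mitochondrial ribosomal protein genes 21 fell and 1 rose (median −0.31). Values below 0 were found for 58 of the 78 and for 51.0% of all genes. Calls in either direction came to 28.2%, against 33.1% of all genes. By direction, 17.8% of all genes were called lower and 15.2% higher, so the mitochondrial calls leaned to falls.

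In ATRXΔRBR cells few genes differed from WT beyond the spread between libraries. Of 78 genes tested, 2 were called by edgeR's quasi-likelihood test over 16287 genes, Rpl5 and Rpl9, both lower (2.56%). Of all genes tested, 6.88% were called, 4.08% lower and 2.79% higher. The median log2 fold change was −0.25, with quartiles of −0.47 and −0.06, against −0.02 over all genes, and 65 of the 78 values were below 0, as were 51.5% of all genes. The ATRXΔRBR libraries were both under the WT libraries for 27 of the 78 genes, as for 25.9% of all genes, and both over them for 4, as for 23.6% of all. The median depended on which libraries entered: without WT replicate 1 it was −0.05 and without ATRXΔRBR replicate 1 −0.05, and without WT replicate 2 −0.44 and without ATRXΔRBR replicate 2 −0.48. Calls numbered 0 without ATRXΔRBR replicate 1, 9 without WT replicate 2, 4 without WT replicate 1 and 3 without ATRXΔRBR replicate 2. A fall to 0.5 of WT or less that passed the test was seen for 0 of the 78 genes and for 3.6% of all, and an unadjusted p under 0.05 for 15 of them and for 20.6% of all.

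Rpl5 (chr5:107900502-107909005) had 167 and 174 CPM in WT and 91.2 and 97.5 in ATRXΔRBR (log2 fold change −0.85, SE 0.165, adjusted p = 0.0211 by edgeR). Rpl9 (chr5:65388364-65391444), which lies at the base of the stalk, had 25.3 and 23.1 CPM in WT and 12.8 and 14.0 in ATRXΔRBR (−0.85, SE 0.192, adjusted p = 0.0373 by edgeR). In both genes the 2 groups were apart and the replicates close. Both lost their call without either ATRXΔRBR library, and Rpl9 also without WT replicate 1. Both have all of their windows elsewhere in the genome. They were also called lower in ATRX KD, as were 54 of the 79 ribosomal protein genes tested there (68.4%). That comparison uses the same WT libraries. Rpsa had 62.6 and 39.0 CPM in WT and 25.04 and 28.2 in ATRXΔRBR (−0.93, adjusted p = 0.0683), and Rpl7a 35.2 and 24.4 against 12.2 and 20.5 (−0.86, adjusted p = 0.137). Rpsa passed the test without WT replicate 2 (−1.23), with DESeq2 (−0.93), with no filter on low counts (−0.95) and with all 6 libraries in a single fit (−0.94). The same was so for Rpl7a with no filter (−0.87), without WT replicate 2 (−1.095) or ATRXΔRBR replicate 2 (−1.29). Rpl11 had 24.5 and 20.1 CPM against 11.4 and 14.3 (−0.79, adjusted p = 0.0768). At the upper end stood Rps19 with 94.02 and 68.3 CPM in WT and 94.5 and 130 in ATRXΔRBR (0.47, SE 0.233, adjusted p = 0.308 by edgeR) and Rpl37 (0.37), neither of which passed the test.

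Of the genes chosen by role, only Rpl5 was called in ATRXΔRBR. Log2 fold changes of these genes ran from −0.93 at Rpsa to 0.47 at Rps19. Rplp1 had 855 and 640 CPM in WT and 419 and 626 in ATRXΔRBR (−0.52, adjusted p = 0.268). Rps6 had 6.60 and 5.004 CPM against 3.91 and 3.55 (−0.64, adjusted p = 0.272). Large-subunit genes had a median of −0.29 and small-subunit genes of −0.20. The 31 genes with 99% or more of windows elsewhere had a median of −0.43, the 40 genes with 50 to 99% of −0.15 and the 7 genes below 50% of −0.10, and the part of reads with other places was not tested. None of the 16 TOP factors (median 0.07), 78 mitochondrial ribosomal protein genes (median −0.17) or 3 genes that the symbol rule misses was called. Of the 36 ribosome biogenesis genes Ltv1 and Nop2 were called lower (5.56%). Of all genes, 4.08% were called lower and 6.88% in either direction.

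The last comparison asks which proteins were found at the transcription start sites (TSS). A peak was placed at a gene when it touched the 2 kb on either side of the outermost start of the gene. The lists hold no read depth, so counts of genes were set beside the same share of the 9578 protein-coding genes with at least 5 TPM in both WT libraries, 74 of which are ribosomal protein genes. Shares of ribosomal protein genes are of all 85, with those below that level included, so the 2 shares are of unlike sets. For 20 of the 85 genes another protein-coding TSS lies within 2 kb of the TSS, so that a peak can belong to the neighbour.

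ATRX peaks stood at few of these genes. They were found at 12 and 9 of the 85 genes in the WT lists (14.1% and 10.6%), against 22.9% and 10.9% of expressed genes, and at 19 and 5 in the ATRXΔRBR lists (22.4% and 5.88%), against 26.9% and 9.24%. The ATRXΔRBR lists lay on either side of both WT lists. Only Rpl37, Rpl41, Rps27l and Rps29 had a peak in both WT lists, as did 6.96% of expressed genes, and Rps27l and Rps29 in all 4 lists, as did 3.08%. These counts are no higher than the background. At Rps29 (chr12:69157722-69159186), whose zinc-binding protein sits in the small-subunit head, the peaks covered the start in each list and had fold enrichments of 5.99 and 5.13 in WT and 5.35 and 4.68 in ATRXΔRBR. At Rps27l they lay at chr9:66945988-66946128 and chr9:66945872-66946526 in WT, with fold enrichments of 4.22 and 4.29. Rps2 had a peak in both ATRXΔRBR lists and neither WT list, centred 1837 and 1783 bases after the outermost start. RefSeq puts the start of Rps2 1947 bases after that start. Of expressed genes, 0.689% had peaks in that pattern. None of the 85 had a peak in both WT lists and neither ATRXΔRBR list, a set with 0.804% of expressed genes, so that the count of 0 is near the background. By replicate number, 12 genes had a peak in ATRXΔRBR and not in WT in replicate 1 and 2 genes in replicate 2, against 13.8% and 3.39% of expressed genes. The reverse held for 5 and 6 genes, against 9.79% and 5.01%, and these counts too are near the background.

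EZH2 peaks were found at most ribosomal protein genes in WT, and H3K27me3 peaks at almost none. EZH2 had a peak at 66 and 58 genes in the WT lists (77.6% and 68.2%), against 84.4% and 78.4% of expressed genes. In ATRXΔRBR the lists named 76 and 34 genes (89.4% and 40%), against 87.1% and 57.9%, and in ATRX KD 15 and 26 genes (17.6% and 30.6%), against 31.7% and 41.5%. The whole ATRX KD lists were also short, with 5376 and 7093 peaks against 22316 and 18351 in WT, so that the fall at these genes cannot be told apart from that of the lists. The ATRXΔRBR lists differed in length too, with 22418 peaks in replicate 1 and 11408 in replicate 2. The peaks were narrow, and in WT their median widths were 503 and 450 bp. The start was covered by 56 of 67 and 44 of 59 of them. Both WT lists had a peak at 55 of the 85 genes, and at 75.6% of expressed genes. All 4 WT and ATRXΔRBR lists had a peak at 34 of the 85 and at 56.2% of expressed genes. These 34, among them Rplp0, Rplp1, Rps19, Rpl5, Rpl13 and Rpsa, were every gene with a peak in ATRXΔRBR replicate 2. Both WT and both ATRX KD lists had a peak at 12 of the 85 and at 26.1% of expressed genes. Among the 12 were Rplp1, Rpl22, Rpl22l1 and Rps19. A peak in both WT lists and neither ATRX KD list was found at 29 of the 85 and at 30.8% of expressed genes. Among the 29 were Rplp0, Rpl13 and Rpsa. The median log2 fold change of RNA in ATRX KD was −0.997 for the 12 and −1.20 for the tested 28 of the 29. For tested genes with an EZH2 peak in 1 WT list it was −1.07, and with one in neither WT list −0.94. Over all 79 genes tested it was −1.14, and a link between these peaks and the RNA was not tested.

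No EZH2 peak in either WT list was found at 16 genes, Rpl10l, Rpl19, Rpl23, Rpl24, Rpl26, Rpl35a, Rpl39l, Rpl3l, Rpl4, Rpl9, Rps14, Rps15a, Rps24, Rps27rt, Rps28 and Rps4x. In RNA they ranged from Rpl4 with 2196 and 2286 TPM to the silent Rpl39l. Their median was 48.1 TPM in WT, against 175 TPM for the 55 genes with a peak in both lists. The 16 include the paralogs Rpl10l, Rpl39l, Rpl3l and Rps27rt, which were at 0 TPM in WT and lower that median. The means of the other genes lay on both sides of 175 TPM, so the medians show no lower level of expressed genes without a peak. H3K27me3 peaks lay within 2 kb of 2 and 0 genes in WT (2.35% and 0%), against 3.21% and 3.70% of expressed genes and 15.6% and 16.4% of all protein-coding genes. The count was 3 and 1 in ATRXΔRBR, against 5.78% and 5.20% of expressed genes. It was 0 in both ATRX KD lists, where 1.48% and 1.21% of expressed genes had a peak. The 4 genes concerned were Rpl3, Rpl31, Rpl38 and Rps18, and no H3K27me3 peak covered a start. Rpl31 was the only gene with such a peak in both ATRXΔRBR lists, and there the peaks reached upstream over 6596 and 11953 bp.

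**Figure D5:**
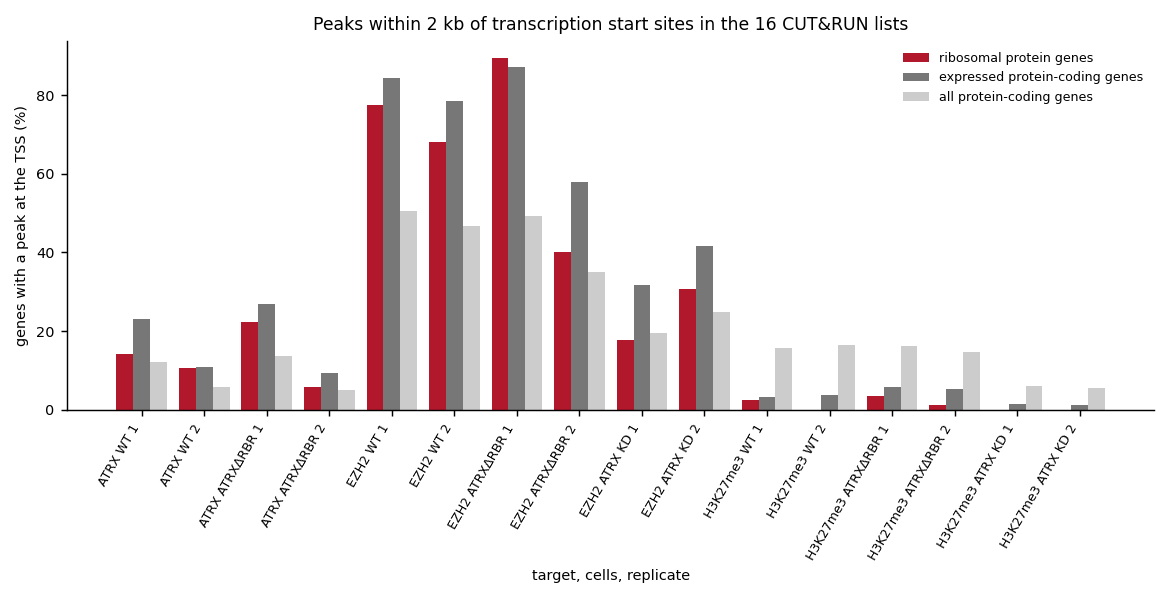
Percent of the 85 ribosomal protein genes, of expressed and of all protein-coding genes with a peak within 2 kb of the TSS, for each of the 16 CUT&RUN lists. EZH2 bars of ribosomal protein genes reach 77.6% in WT and 89.4% in ATRXΔRBR and are at 17.6% and 30.6% in ATRX KD, and H3K27me3 bars stay at 3.53% or less.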

How the data were processed

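Per the paper's methods, the authors used STAR for alignment of RNA-Seq reads, and RSEM for the estimated counts and TPM per gene that they deposited. CUT&RUN reads were mapped to mm10 with Bowtie2 and the authors called broad peaks with MACS2 per library. The deposited peaks give a fold enrichment over background (ratio) and a −log10 q-value. The IgG libraries were not analysed here. The length and effective length columns were used as deposited.

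After rounding of the estimated counts, each comparison took in its 4 libraries and every gene whose counts summed to over 10. The test was the quasi-likelihood test of edgeR 4.0.16 (R 4.3.3), with TMM and Benjamini-Hochberg adjustment at 0.05 over all genes. DESeq2 1.42.0 was an alternative. On simulated data, 4-fold changes were recovered for 100% and 2-fold changes for 60% (ATRXΔRBR) and 74% (ATRX KD) of 100 genes each, among 16325 and 16816 genes. The changed genes were drawn only from those with a mean of at least 100 counts, and all genes had the same dispersion. Changes in genes with fewer counts or with more spread were not simulated. Both comparisons share the WT libraries. Windows were searched in GRCm38 with numba 0.67.0.

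The genes and lists were chosen with earlier results of these data known. Named were, per comparison, called genes up to the 15 with the lowest p, the 3 highest and 3 lowest log2 fold changes among genes with at least 100 counts per library, and genes fixed by role, by paralogy or by peaks at the TSS. Rpl11 in ATRXΔRBR, Rpl4, Rpl8 and Rpl38 in ATRX KD, the genes given for their level, copies or sequence, and the examples of the other lists were added after their values were seen. Some genes are not reported here by name and are not drawn, but they are in the counts and medians.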

Additional observations from a re-analysis of the deposited data

How the results depend on the processing

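The calls in ATRX KD numbered 51 to 68 when a library was left out and 53 to 66 under the other settings of scaling, filter, tool, block and pseudogene counts, and the median log2 fold change lay between −1.01 and −1.28 without a library. From mean TPM it was −0.86 with a pseudocount of 1 and −0.87 with none. Restricted to genes with under 50% of windows elsewhere, chosen after seeing the data, 6 genes of 7 were called, and 0 in ATRXΔRBR.

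The 2 calls in ATRXΔRBR were 12 with no filter on low counts, 4 with all 6 libraries in a single fit, 3 with DESeq2, 0 with the replicate block and 0 to 9 with a library left out, and the cause was not tested. Crossing the numbers, chosen after seeing the data, gave 35 calls among these genes and 5547 in all. Same-numbered libraries did not deviate together over all tested genes (r = −0.37 in ATRXΔRBR and −0.03 in ATRX KD), so the numbers were not used as a pairing. Each r rests on 1 difference per genotype and cannot tell whether some libraries were prepared together. Over the ribosomal protein genes r was −0.60 in ATRXΔRBR, a deviation in opposite directions whose source was not tested, and −0.02 in ATRX KD. The block took the calls of Rpl5 and Rpl9 and changed none of the named genes in ATRX KD. A group left with 1 library is assumed to vary like the other group. The median in ATRXΔRBR stayed below 0, from −0.05 to −0.48 without a library.

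Of the values of named genes under all alternatives, 77 of 91 in ATRXΔRBR and 241 of 247 in ATRX KD kept their direction and side of the threshold. Rps2 in ATRX KD turned to −0.044 with the counts of its pseudogenes. The share of the RNA pool was 3.797% in WT, 3.44% in ATRXΔRBR and 1.84% in ATRX KD when taken from TPM, and without a library 1.15% to 1.5002%, 0.9501% to 1.34% and 0.555% to 0.595%.

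With a q-value of 0.01 or less, ATRX peaks stood at 7 and 4 genes in WT and 10 and 2 in ATRXΔRBR, and EZH2 peaks at 22 in ATRXΔRBR replicate 2 and 16 in ATRX KD replicate 2. H3K27me3 in WT replicate 1 was at 0 genes within 1 kb, at 1 by q and at 1 by peak midpoint, in ATRXΔRBR replicate 1 at 1 within 1 kb and 1 by midpoint, and in replicate 2 at 0 by midpoint. Depth limits the genes under 10 TPM, where calls rest on few reads.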
